A study of Mus musculus with 12 samples.

Results

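p53 is a transcription factor that is normally kept scarce and becomes active when a cell is stressed. The genes examined were p53 itself and 31 genes listed as its targets, named as a list of 32. Whether p53 acts on each of them in these cells was not tested. A gene was taken up where a probe set, the group of short probes that measures a transcript on the array, named it alone, and where several did, the brightest on average represented it. By this rule 29 of the 32 were measured, out of 18193 genes in all. Trp53, which encodes p53, and the targets Gdf15 and Fdxr are not analysed here. Of the 29, 27 lay above the background range on every array, with a bound of 5.14 on the log2 scale. Xpc and Rprm lay at or under it on some arrays.

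The samples were STHdh cells, lines derived from the striatum of embryonic knock-in mice, one carrying wild-type huntingtin on both alleles (STHdhQ7/Q7, here Q7) and the other the expanded-repeat mutant on both (STHdhQ111/Q111, here Q111). Each line was measured untreated at 33 °C and after heat shock, 6 h at 42 °C, with 3 arrays in each of the 4 groups. All cells grew in serum-containing medium with G418, and each genotype is represented by 1 line, so that genotype and line cannot be told apart. Nothing in the labels says that replicates came from separate cultures, so p-values measure the spread between these arrays, which may be technical.

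In unstressed cells p53 is bound and marked for destruction by Mdm2, a ubiquitin ligase that is itself a p53 target and so closes a feedback loop. Stabilised p53 binds a pair of short repeats near its target genes and raises transcripts that halt the cell cycle, arm death receptors and the mitochondrial death route, or repair DNA. Cdkn1a, the cyclin-dependent kinase inhibitor p21, carries most of the arrest, and indirectly lowers genes of mitosis and replication. STHdh cells were immortalised with a temperature-sensitive large T antigen, a viral protein that binds p53 and loses activity above the growth temperature. The arrays do not measure it, and heat stress and loss of T antigen activity cannot be told apart in this design.

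RefSeq promoter windows (build GRCm38.p6), 300 bases running from 250 before to 50 after a transcription start, were matched by symbol for 22 of the 29 genes, in 28 windows. The 10-base p53 repeat, of which a p53 response element holds a pair, was searched by exact match; its pattern reads the same on both strands. It was found in 11 of the 28 windows (39.3%), against 8.36% of all 32851 windows, and in 10 of the 22 genes. These genes were Aen, Ccng1, Cdkn1a, Ei24, Gadd45a, Gtse1, Mdm2, Polk, Ppm1d and Sesn1. A pair of p53 repeats at most 13 bases apart occurred in the window of Cdkn1a alone among the 22, against 0.0731% of all windows. All 10 are shown, so that the single repeats can be read beside the pair of Cdkn1a. The windows of Eda2r and Fas, the genes with the largest rises in Q7 cells, hold none. The sequences run 5′ to 3′ on the gene's strand, and capitals mark exact p53 repeats. The 10 bases directly after the second marked repeat of Cdkn1a differ from the pattern at a single base and so are not marked.
Cdkn1a, whole window, chr17:29090729-29091028, plus strand: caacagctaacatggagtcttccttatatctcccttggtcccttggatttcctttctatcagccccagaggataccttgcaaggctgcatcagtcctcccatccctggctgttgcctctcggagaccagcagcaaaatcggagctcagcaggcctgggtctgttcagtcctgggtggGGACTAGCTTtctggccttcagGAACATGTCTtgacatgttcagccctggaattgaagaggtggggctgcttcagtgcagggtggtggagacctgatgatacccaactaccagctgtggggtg
Mdm2, 186 bases before the start, chr10:117710915-117710964, minus strand: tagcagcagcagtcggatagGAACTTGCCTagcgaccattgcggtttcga
Ppm1d, 132 bases before the start, chr11:85311102-85311151, plus strand: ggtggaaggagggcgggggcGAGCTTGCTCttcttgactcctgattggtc
Ccng1, 185 bases before the start, chr11:40755442-40755491, minus strand: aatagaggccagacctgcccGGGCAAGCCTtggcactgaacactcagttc
Gtse1, 10 bases after the start, chr15:85859935-85859984, plus strand: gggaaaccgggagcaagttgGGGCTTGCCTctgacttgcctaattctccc
Ei24, 10 bases before the start, chr9:36797315-36797364, minus strand: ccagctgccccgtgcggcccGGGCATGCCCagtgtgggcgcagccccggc
Polk, 231 bases before the start, chr13:96519389-96519437, minus strand: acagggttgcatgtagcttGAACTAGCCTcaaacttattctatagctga
Sesn1, 173 bases before the start, chr10:41887246-41887295, plus strand: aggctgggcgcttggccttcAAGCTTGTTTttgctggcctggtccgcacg
Aen, 121 bases before one of its starts, chr7:78895917-78895966, plus strand: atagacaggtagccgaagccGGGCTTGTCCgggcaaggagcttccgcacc
Gadd45a, 40 bases before the start, chr6:67037418-67037467, minus strand: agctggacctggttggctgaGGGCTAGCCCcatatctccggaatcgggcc

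A match is a description of the letters and not a bound site. The core of the heat shock element, GAANNTTC, searched on both strands, occurred in 7.14% of the 28 windows, those of Fas and Sesn1, against 7.86% of all windows. In Sesn1 this core and the p53 repeat lie in windows of different transcription starts. The CCAAT box was found in 57.1% of the windows against 37.4% of all, and TATAAA in 3.57%, that of Eda2r, against 13.6%. Of the 10 genes with a p53 repeat in the window 8 were called higher after heat shock in Q7 cells, and of the 12 with a window and no repeat 9 were. In Q111 cells these counts were 7 and 8.

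Whole-array features bear on all that follows. Markers of cell types were checked first. Of 7 striatal projection neuron markers only Rgs9 lay above background range on all 12 arrays and Drd2 lay above it on none. The neural progenitor markers Nes, Sox9 and Msi1, 3 of 6, and the fibroblast markers Col1a1, Col1a2 and Dcn, 3 of 6, lay above it on all. So did Map2 of 6 neuron markers, Aldh1l1 and Slc1a3 of 6 astrocyte markers and Tmem119 of 6 microglia markers. The astrocyte marker Gfap and the microglia marker Aif1 lay above it on none. Of 5 endothelial and 5 oligodendrocyte markers, 4 of each were above it on no array. The mean level of the 6 progenitor markers ran from 8.61 to 8.79 on untreated and 8.03 to 8.40 on heat-shocked Q7 arrays, and from 6.13 to 6.28 and 5.48 to 5.84 on Q111 arrays. That of the 6 fibroblast markers ran from 7.34 to 7.66 on untreated Q7 arrays and was as low as 6.96 on heat-shocked ones, and from 8.78 to 8.86 and 8.00 to 8.43 on Q111 arrays, with Lum and Thy1 above background on none. The part of these line differences in the results was not tested. The 3′ minus 5′ difference of the actin control probe sets, a sign of RNA quality that is larger in degraded RNA, was 0.54 ± 0.16 (SD, n = 3) in untreated and 1.48 ± 0.12 in heat-shocked Q7 cells, and 0.72 ± 0.36 and 1.25 ± 0.23 in Q111 cells. It was higher after heat shock in both lines, with 0.69, 0.38 and 0.55 on the untreated Q7 arrays and 0.49, 1.14 and 0.53 on the untreated Q111 arrays. Untreated Q111 replicate 2, at 1.14, lay inside the range of the heat-shocked Q111 arrays, 0.99 to 1.39. Centring each array on its median gene moved the median heat shock effect over all genes by 0.35 in Q7 and 0.73 in Q111 cells, and centring on ribosomal protein genes moved it by -0.21 and -0.30, so that every difference below is relative to the deposited scaling.

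Among the untreated arrays 1 stood apart in these genes. On untreated Q111 replicate 1, 23 of the 29 genes were above both other replicates of the group, against 29.5% of all genes, and their median deviation from those replicates was 0.43 against -0.06 over all genes. The gap exceeded 0.5 on the log2 scale for 12 genes, Cdkn1a, Mdm2, Eda2r, Fas, Trp53inp1, Zmat3, Psrc1, Perp, Ccng1, Btg2, Dcxr and Apaf1. Trp53inp1 was 1.73 higher there, Eda2r 1.63, Zmat3 1.38 and Cdkn1a 1.07. Its actin difference lay inside the range of the untreated Q7 arrays. The replicate with the high actin difference, untreated Q111 replicate 2, had the lowest median deviation of the 12 arrays, -0.32. Untreated Q7 replicate 1, which shares its number with the high Q111 array, was above both other replicates in 15 genes, with a median deviation of 0.15. Counts and called values that rest on untreated Q111 cells are therefore given also without Q111 replicate 1, and counts at 33 °C and for heat shock in Q111 cells without replicate 1 of both lines. That array was set apart by the levels of these same genes. Leaving it out lowers the untreated Q111 mean of the genes that are high on it by construction. Calls gained in this way are therefore no separate support. Among the heat-shocked arrays Q111 replicate 3 stood apart over all genes. The SD of its differences from the other replicates was 0.76 and 0.84, against 0.36 to 0.65 for all other pairs of replicates, and the 5th to 95th percentile of its deviations over all genes ran from -1.26 to 1.15. Dcxr was 2.03 lower there than on the other replicates, Xpc 1.22, Sesn1 1.17 and Tnfrsf10b 0.82.

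**Figure D1:**
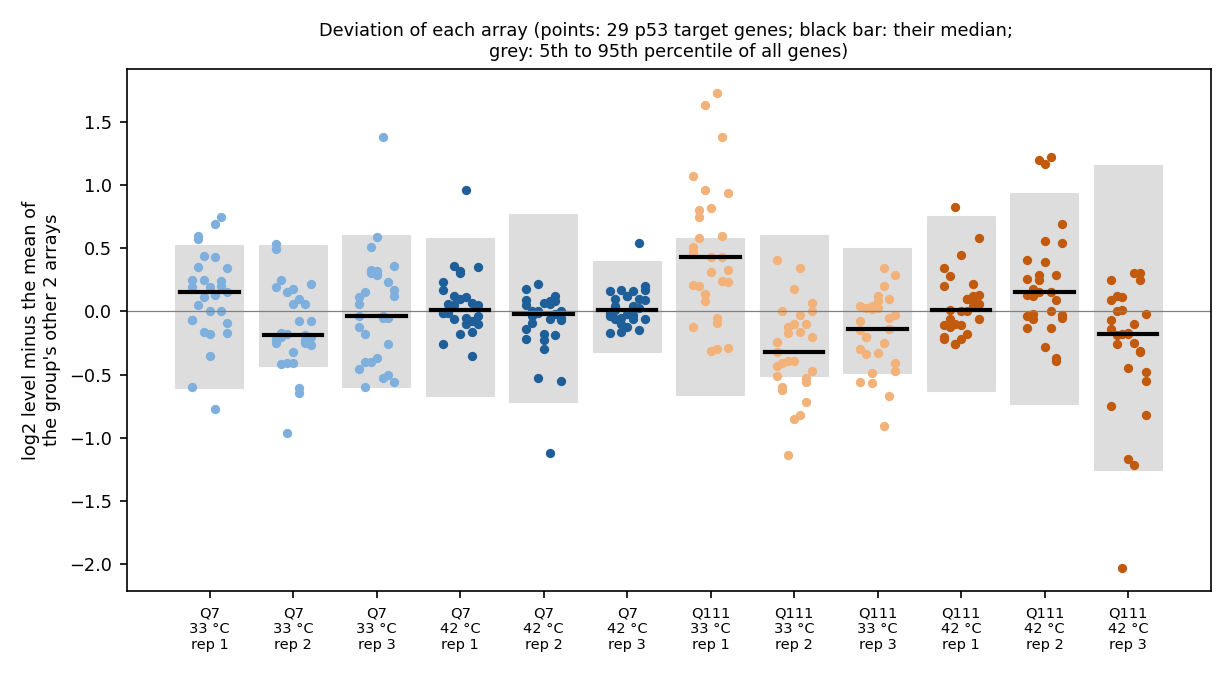
Each point is 1 of the 29 p53 target genes on 1 array, placed by its log2 level minus the mean of the other 2 arrays of the same group; black bars are medians over the 29 genes and grey boxes span the 5th to 95th percentile of all 18193 genes. The bar of untreated Q111 replicate 1 lies at 0.43, the highest of the 12 arrays, and that of untreated Q111 replicate 2 at -0.32, the lowest.

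Heat shock in Q7 cells raised most of the target genes and lowered none. A gene was called at an adjusted p under 0.05 by limma, adjusted across the 18193 genes by Benjamini and Hochberg's method. By this test 18 of 29 were higher and 0 lower (21 and 1 at an unadjusted p under 0.05). Over all genes 30.4% were called, 12.3% higher and 18.1% lower. The median effect was 0.82 against 0.00 over all genes, and 13 of the 18 rose at least 2-fold. The heat-shocked arrays did not overlap the untreated ones for 22 of the 29, against 48.8% of all genes. The largest rises were those of the death receptors Eda2r and Fas.

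Both feedback regulators of p53 rose. Mdm2, the ligase that removes p53, lay at 12.41, 11.72 and 11.88 on the untreated arrays (replicates 1 to 3, log2 level) and at 13.28, 13.25 and 13.31 after heat shock. The groups did not overlap, and the level was 2.42-fold higher (log2 difference 1.27, SE 0.22, adjusted p = 0.00123). The less bright probe sets of Mdm2 rose by 2.57 and 1.98. Ppm1d, the phosphatase that switches p53 and its kinases off, went from 9.16, 9.09 and 8.52 to 10.21, 10.15 and 10.28. Its rise was 2.45-fold (1.29, SE 0.17, adjusted p = 2.38e-04), again with no overlap.

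Of the 9 arrest genes 6 were higher. Cdkn1a went from 11.62, 11.31 and 11.43 to 12.65, 12.70 and 12.64, a 2.31-fold rise (1.21, SE 0.25, adjusted p = 0.00324). Btg2, an antiproliferative cofactor of mRNA decay, went from 9.43, 8.93 and 8.78 to 11.33, 11.29 and 11.25, or 4.74-fold (2.25, SE 0.24, adjusted p = 5.58e-05). It had the largest effect among the arrest genes by their brightest probe sets. Rprm, which holds cells in G2, went from 7.05, 7.46 and 6.79 to 8.91, 8.60 and 8.74, or 3.14-fold. Gtse1, a microtubule protein that restrains p53 in G2, rose 2.85-fold, Psrc1, a spindle protein, 2.35-fold, and Ccng1, a cyclin that works with Mdm2, 1.83-fold. None of these 6 had overlapping groups. The less bright probe sets of Ccng1 rose by 2.66 and 2.44, more than the brightest of Btg2. Gadd45a, a stress sensor of the G2 checkpoint, lay at 10.97, 11.07 and 12.40 untreated and at 12.30, 12.18 and 12.18 after heat shock, so that untreated replicate 3 was above all heat-shocked arrays and the difference of 0.74 was not called (adjusted p = 0.0943). The polo-like kinase genes Plk2 (0.03) and Plk3 (0.17) were not called either.

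Of the 11 death genes 8 were higher. Eda2r, the ectodysplasin receptor of the tumour necrosis factor receptor family, lay at 8.93, 8.00 and 8.98 untreated and at 11.48, 11.67 and 11.42 after heat shock. That is a 7.37-fold rise (2.88, SE 0.40, adjusted p = 3.28e-04), the largest among the 29 by their brightest probe sets. Fas, the death receptor for Fas ligand, went from 8.03, 7.88 and 8.54 to 11.15, 10.73 and 10.92, or 6.89-fold (2.78, SE 0.29, adjusted p = 4.81e-05). Trp53inp1, a stress protein that promotes autophagy and p53 phosphorylation, went from 10.76, 9.87 and 10.27 to 12.58, 12.67 and 12.60, or 4.97-fold (2.31, SE 0.40). In all 3 genes the lowest heat-shocked array was above the highest untreated one. Phlda3, an inhibitor of Akt signalling, rose 2.57-fold (1.36) and Apaf1, the scaffold of the apoptosome, 2.14-fold (1.10). Aen, an apoptotic nuclease, rose 1.77-fold, Ei24, an endoplasmic reticulum protein of autophagy, 1.51-fold, and Epha2, an ephrin receptor kinase, 1.51-fold. Perp, a desmosomal membrane protein with an apoptotic role, was 0.49 higher (adjusted p = 0.0585), Zmat3, an RNA-binding zinc finger protein, 0.63 (0.194), and Tnfrsf10b, the receptor of the ligand TRAIL, 0.14 (0.711), none of them called.

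Among 5 genes of DNA repair and nucleotide supply, 2 were higher. Polk, a translesion DNA polymerase, lay at 9.15, 9.00 and 9.30 untreated and at 10.30, 10.34 and 10.42 after heat shock, a 2.31-fold rise (1.21, SE 0.18). Its second probe set above background range did not pass. Ercc5, an excision repair nuclease, rose 1.36-fold (0.44, adjusted p = 0.0342). Its second probe set rose by 3.35 (adjusted p = 1.35e-04). The mean level of that probe set over the arrays, 4.21, was under the background bound, and its highest array lay at 6.89. Xpc, the damage sensor of global excision repair, was 0.91 lower and not called (adjusted p = 0.117). Ddb2, the ultraviolet damage sensor (0.43), and Rrm2b, the p53-inducible ribonucleotide reductase subunit (-0.04), were not called, nor were Sesn1 (0.28), a stress-induced inhibitor of mTORC1, and Dcxr (-0.44), a carbonyl and xylulose reductase.

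The calls of 16 of the 18 genes held whichever of the 12 arrays was left out. The other two were Epha2 and Ercc5, each lost without any one of 4 arrays of the Q7 groups, with adjusted p up to 0.112 and 0.124. With the actin difference added to the model, only Fas, Btg2, Polk and Rprm were called (4 of 29), where 1.39% of all genes were still called higher and 1.01% lower. The median effect over the 29 was 1.07 in that fit against 0.82. The actin difference ran from 0.38 to 0.69 on untreated and from 1.35 to 1.60 on heat-shocked Q7 arrays. Because it separates these groups fully, this fit cannot tell heat shock and RNA quality apart.

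Heat shock in Q111 cells again raised most target genes, but it also lowered some. Of the 29, 17 were higher and 5 lower (Sesn1, Plk2, Tnfrsf10b, Xpc and Dcxr). Over all genes 48.1% were called, 20.0% higher and 28.2% lower. Those called lower were thus a smaller share of the 29 than of all genes. The median effect was 0.57 against -0.02, and the groups did not overlap for 23 genes, against 54.7% of all. Both lines shared 15 of the genes called higher; Ei24, Ercc5 and Apaf1 were called in Q7 alone and Perp and Plk3 in Q111 alone, where a call in 1 line does not show that the effects differ. With each array centred on its median gene, 21 were higher and 2 lower, where 60.4% of all genes were called higher and 12.9% lower. Centring on ribosomal protein genes gave 10 higher and 8 lower, where the shares over all genes were 10.1% and 40.1%.

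The regulators and most arrest genes moved as in Q7 cells. Mdm2 went from 12.16, 11.39 and 11.43 to 12.79, 12.79 and 12.91, or 2.26-fold (1.18, SE 0.22, adjusted p = 0.00132), and by 1.42 without untreated replicate 1. Ppm1d went from 9.04, 8.91 and 8.78 to 9.74, 9.86 and 9.61, or 1.77-fold (0.82, SE 0.17). Neither had overlapping groups. Less bright probe sets rose by 2.28 and 1.79 for Mdm2 and by 2.25 and 1.77 for Ccng1. Cdkn1a, the p21 inhibitor, went from 11.03, 9.98 and 9.94 to 12.04, 11.82 and 11.86. The rise was 3.01-fold (1.59, SE 0.25, adjusted p = 3.89e-04), and 1.95 without untreated replicate 1, the highest of its group by more than 1. Btg2 rose 2.89-fold (1.53) from 9.40, 8.46 and 8.73 to 10.58, 10.38 and 10.22. Gtse1 (0.85), Ccng1 (0.85), Psrc1 (0.68) and Plk3, a stress-activated kinase (0.62), were called higher too, although 1 of the other probe sets of Psrc1 did not pass (-0.02), and Plk2, its relative, was called lower by 0.36. Plk2 lay at 11.73, 11.66 and 11.90 and then at 11.47, 11.40 and 11.33. Rprm was called (0.57), but all 6 Q111 arrays of it, 4.41, 3.88 and 3.99 and then 4.52, 4.75 and 4.72, were under the background bound, so no fold is given.

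Death receptors diverged. Eda2r went from 9.21, 7.36 and 7.79 to 10.37, 10.64 and 10.61, or 5.35-fold (2.42, SE 0.40, adjusted p = 6.18e-04), and by 2.96 without untreated replicate 1. Fas went from 8.96, 7.84 and 8.42 to 9.89, 10.34 and 9.66, or 2.94-fold (1.56, SE 0.29, adjusted p = 0.00113), and by 1.83 without that array. Tnfrsf10b went the other way, from 8.34, 8.53 and 8.73 to 7.69, 8.07 and 7.06, 1.90-fold lower (-0.93, SE 0.24, adjusted p = 0.00932), although its other probe set above background range did not pass. None of these 3 receptors had overlapping groups. Trp53inp1 rose 4.55-fold (2.19), from 11.06, 9.36 and 9.30 to levels between 11.97 and 12.29, and by 2.76 without untreated replicate 1. Phlda3 (1.31), Epha2 (1.15), Aen (0.60) and Perp (0.52) were called higher. The other 3 probe sets of Aen, at 0.02, 0.59 and -0.11, did not pass. Apaf1, Ei24 and Zmat3 were not called, at -0.43, 0.32 and -0.66. Zmat3 lay at 11.26, 9.86 and 9.90 untreated and at 9.74, 9.42 and 9.88 after heat shock, and its difference was -0.20 without untreated replicate 1.

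In the repair group Xpc fell furthest of the 29. It lay at 7.36, 7.65 and 7.26 untreated and at 4.95, 5.76 and 4.13 after heat shock, a log2 difference of -2.48 (SE 0.41, adjusted p = 5.54e-04), with 2 of the heat-shocked arrays under the background bound. Dcxr fell by 1.98 (SE 0.48, adjusted p = 0.00584), from 9.61, 8.71 and 8.59 to 7.55, 7.80 and 5.64. Without untreated replicate 1 the difference of Dcxr was -1.66. Sesn1, at 9.23, 9.56 and 9.52 and then 8.57, 9.35 and 7.79, was called lower by 0.87 with overlapping groups. Heat-shocked replicate 3 was the lowest for all 3 genes and for Tnfrsf10b. Without it 15 genes were higher and 3 lower, with Xpc at -2.07 (adjusted p = 0.00117), Dcxr at -1.30 (0.00439) and Tnfrsf10b at -0.65 (0.0249), while Sesn1 (-0.48, 0.119) and Plk2 (-0.33, 0.0664) were not called. Polk was called higher by 0.54, but the mean of its probe sets differed by -0.06 (adjusted p = 0.830). Ercc5 (-0.35), Ddb2 (-0.03) and Rrm2b (-0.02) were not called. The second probe set of Ercc5, with a mean level under the background bound, went the other way (1.13, adjusted p = 0.0404).

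Without untreated replicate 1, 22 genes were again called, 18 higher and 4 lower, with a median of 0.70. Ei24 (0.39, adjusted p = 0.0432) was gained and Sesn1 (-0.97, adjusted p = 0.0517) was lost. The other called effects without it were 1.80 for Btg2, 1.30 for Epha2, 1.27 for Phlda3, 1.02 for Ccng1, 0.96 for Gtse1, 0.89 for Ppm1d, 0.72 for Perp, 0.70 for Plk3, 0.68 for Polk, 0.64 for Aen, -0.38 for Plk2, -1.02 for Tnfrsf10b and -2.51 for Xpc, with Psrc1 (adjusted p = 0.00380) and Rprm (0.0153) still called. Without replicate 1 of both untreated groups 18 were higher and 3 lower. Without untreated Q111 replicate 2, 13 were higher and 6 lower. Leaving out each of the 12 arrays in turn kept 16 of the 22 calls; those of Perp, Plk2, Polk, Psrc1, Rprm and Sesn1 were lost without at least 1 array, with adjusted p of 0.0945 to 0.159 at the highest for each. With the actin difference in the model 14 were called, 13 higher and 1 lower, where 7.71% of all genes were called higher and 16.4% lower. The median effect was 0.77 there against 0.57, and Psrc1, for example, was not called at 0.88 with an SE of 0.37 (adjusted p = 0.108). Of the untreated Q111 arrays only replicate 2 had an actin difference within the range of the heat-shocked ones. Here too the fit cannot tell heat shock and RNA quality apart.

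**Figure D2:**
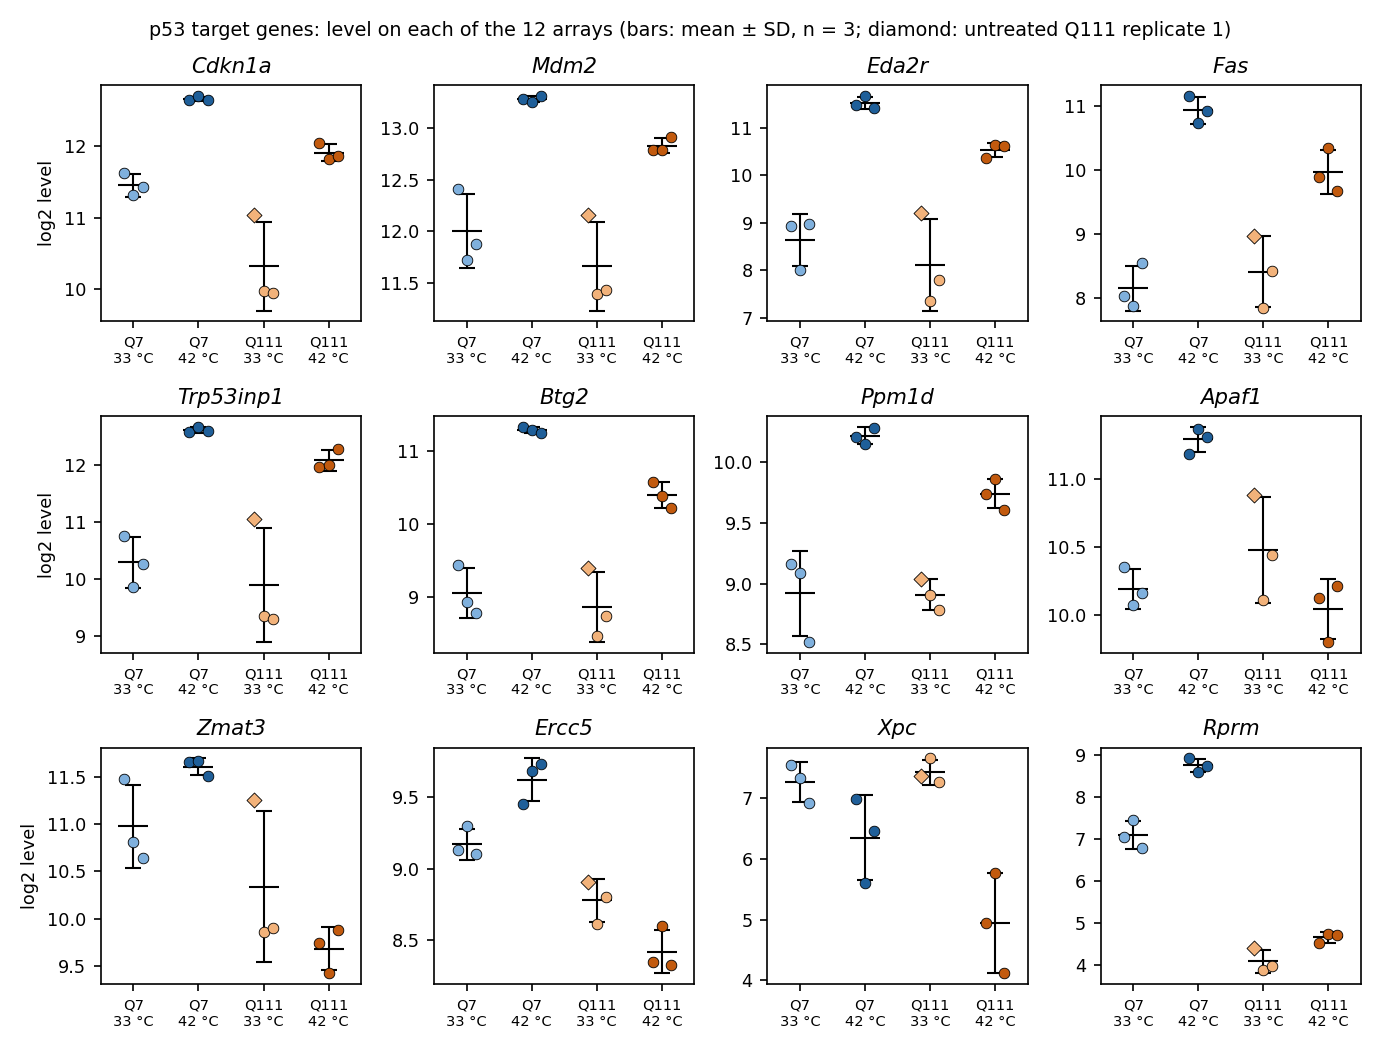
Log2 levels of 12 of the genes on each of the 12 arrays, by group (Q7 in blue, Q111 in orange, pale at 33 °C and dark at 42 °C), with bars for mean ± SD of n = 3 and a diamond for untreated Q111 replicate 1. Mdm2, Eda2r, Fas, Btg2 and Trp53inp1 are higher in both lines after heat shock, Apaf1 is higher in Q7 cells and at 10.12, 9.80 and 10.21 in heat-shocked Q111 cells, and Rprm stays under 5.14 on all Q111 arrays.

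The heat shock effect in Q111 cells minus that in Q7 cells was tested as an interaction. Of 29 genes 0 were called higher and 3 lower, Apaf1, Ercc5 and Rprm (0 and 11 at an unadjusted p under 0.05), where 5.72% of all genes were called, 1.21% higher and 4.51% lower. The difference was below zero for 24 of the 29, which covers both smaller rises and larger falls in Q111 cells, with a median of -0.46 against -0.01 over all genes. Without untreated Q111 replicate 1 it was below zero for 20 of 29, with a median of -0.40, and Mdm2, Eda2r, Trp53inp1 and Ccng1 had differences above zero. With arrays centred on their median gene, the median was -0.09 against 0.37 over all genes and 0 of the 29 were called.

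Apaf1, which assembles the caspase-activating apoptosome, had the clearest difference. Its Q7 levels were 10.35, 10.07 and 10.16 untreated and 11.18, 11.37 and 11.31 after heat shock, and its Q111 levels were 10.88, 10.11 and 10.44 and then 10.12, 9.80 and 10.21. The effect was 1.10 in Q7 and -0.43 in Q111 cells, a difference of -1.53 (SE 0.27, adjusted p = 0.0111). It passed without each of the 12 arrays, and was -1.33 (adjusted p = 0.0192) without untreated Q111 replicate 1. Ercc5 differed by -0.79 (SE 0.20, adjusted p = 0.0425), with an effect of 0.44 in Q7 cells, from 9.13, 9.30 and 9.10 to 9.45, 9.68 and 9.73, and of -0.35 in Q111 cells, from 8.91, 8.61 and 8.80 to 8.35, 8.60 and 8.33. The Q7 groups did not overlap, and neither did the Q111 groups. The second probe set of Ercc5 rose in both lines, with a difference of -2.23 (adjusted p = 0.0538). Leaving out any of 11 arrays ended the call of Ercc5, with adjusted p up to 0.121. For Rprm the difference of -1.08 (adjusted p = 0.0440) sets a rise in Q7 cells against levels under background in Q111 cells, and 10 single arrays ended it.

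Large differences that were not called included those of Xpc (-1.57, adjusted p = 0.142), Dcxr (-1.54, 0.220), Zmat3 (-1.29, 0.149), Fas (-1.23, 0.104), Sesn1 (-1.15, 0.157) and Tnfrsf10b (-1.07, 0.0989). The 5 genes above zero were Epha2 (0.56), Plk3 (0.45), Cdkn1a (0.38), Perp (0.03) and Rrm2b (0.02). Cdkn1a thus rose by 1.21 in Q7 and 1.59 in Q111 cells with no called difference (adjusted p = 0.576). Without untreated Q111 replicate 1 its difference was 0.74 (adjusted p = 0.0668). The count of 3 fell to 1 without any of 9 single arrays (untreated Q7 replicates 1 and 3, heat-shocked Q7 replicates 1 and 3, each untreated Q111 array, and heat-shocked Q111 replicates 1 and 3) and was 5 without heat-shocked Q111 replicate 2.

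**Figure D3:**
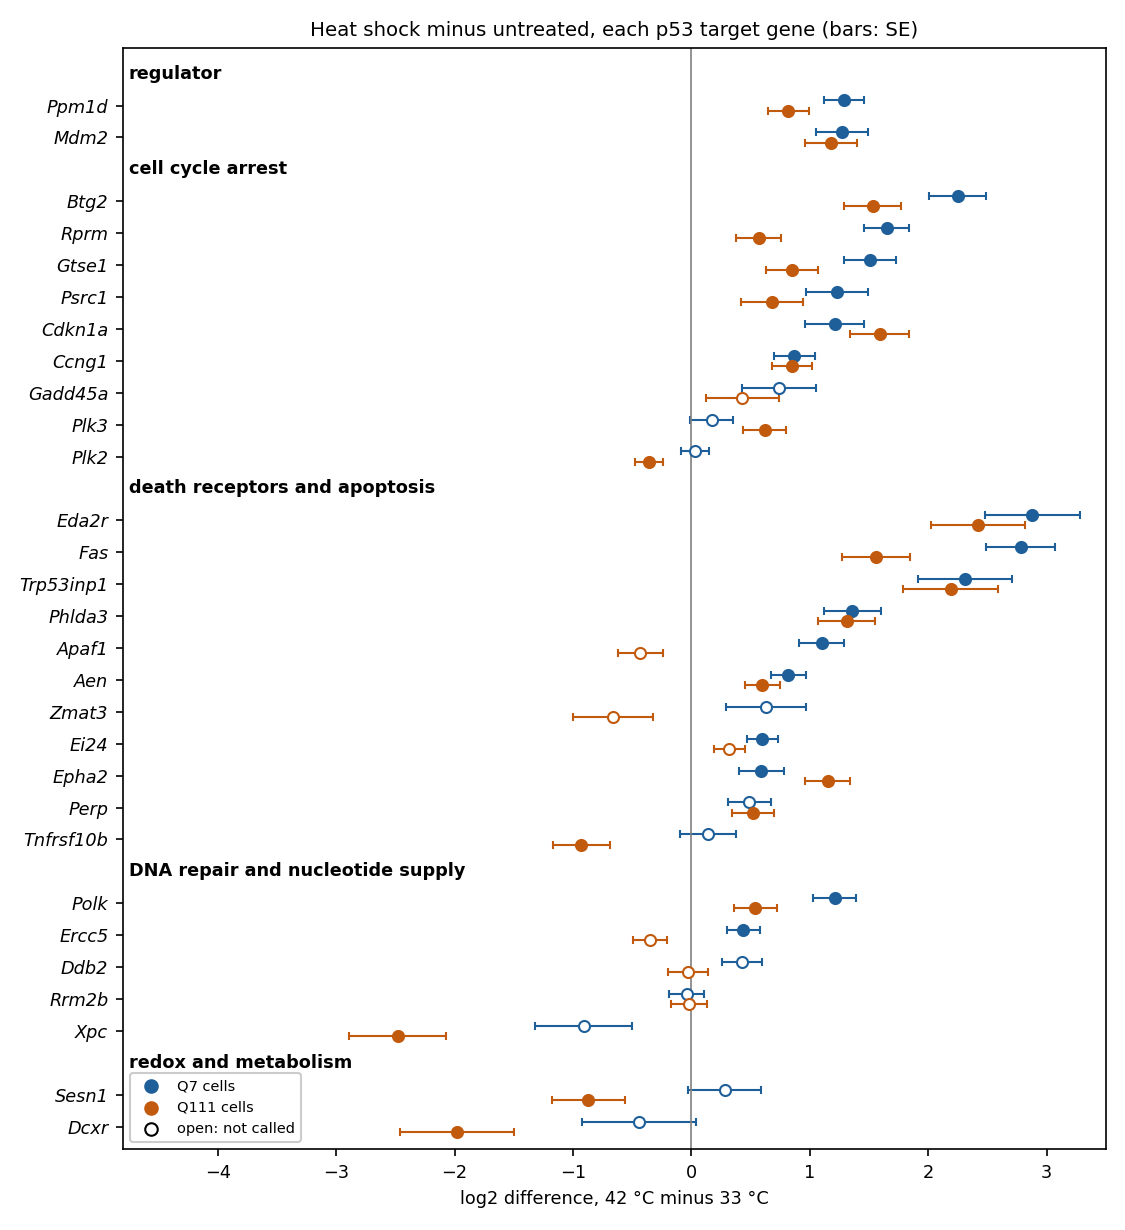
Heat shock minus untreated (log2 difference, 42 °C minus 33 °C) for each of the 29 genes, grouped by role, with Q7 cells in blue and Q111 cells in orange; bars are standard errors and open points were not called. In Q7 cells 18 points are filled and all of those lie to the right of zero, while in Q111 cells 17 filled points lie to the right and 5, Sesn1, Plk2, Tnfrsf10b, Xpc and Dcxr, to the left.

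At 33 °C the lines differed in 8 of the 29 genes, 7 lower and 1 higher in Q111 cells. Over all genes 10.8% were called, 5.68% lower and 5.11% higher. The median difference, Q111 minus Q7, was -0.29 against 0.00 over all genes, and the arrays of the lines did not overlap for 10 genes, against 27.1% of all. The genes lower in Q111 cells were Cdkn1a, Psrc1, Phlda3, Perp, Aen, Epha2 and Rprm, and Ddb2 was higher.

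Rprm, the G2 arrest gene, stood out by size. It lay at 7.05, 7.46 and 6.79 in Q7 cells and at 4.41, 3.88 and 3.99, under the background bound, in Q111 cells. Its level in Q7 cells was therefore at least 3.89-fold higher, taking the bound of 5.14 as the Q111 level (fitted difference -3.01, SE 0.19, adjusted p = 1.41e-06). Cdkn1a lay at 11.62, 11.31 and 11.43 in Q7 and at 11.03, 9.98 and 9.94 in Q111 cells, 2.20-fold lower in Q111 (-1.14, SE 0.25, adjusted p = 0.0102). Replicate 1 was the nearest to the Q7 arrays, and without it the difference was -1.49 (adjusted p = 8.65e-05). Perp lay at 12.41, 12.25 and 12.48 against 11.86, 11.05 and 11.49 (-0.91, SE 0.18, adjusted p = 0.00564) and Epha2 at 8.42, 8.41 and 8.04 against 7.56, 7.21 and 7.05 (-1.02, SE 0.19, adjusted p = 0.00344). For both genes every Q111 array was below every Q7 array. Psrc1 (-1.04), Phlda3 (-0.93) and Aen (-0.58) were lower as well, although the other probe sets of Psrc1 (-0.97 and -0.52) and of Aen (-0.28, -0.33 and -0.06) did not pass. Ddb2, the ultraviolet damage sensor, lay at 10.06, 9.84 and 10.27 against 10.95, 10.48 and 10.79, or 0.68 higher in Q111 cells (adjusted p = 0.0253).

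Untreated Q111 replicate 1 touches this comparison most. Because these same genes set it apart, calls gained without it are no separate support. Without it 9 genes were lower and 0 higher, with a median of -0.44. Eda2r (-1.06, adjusted p = 0.0418), Trp53inp1 (-0.97, 0.0235) and Zmat3 (-1.10, 0.0154) were gained, while Phlda3 (-0.89, 0.0896) and Ddb2 (0.58, 0.103) were lost. Perp was then at -1.11, Epha2 at -1.16, Psrc1 at -1.35, Aen at -0.62 and Rprm at a fitted -3.17. Over all genes the same-numbered untreated arrays of the lines deviated together, and Q7 replicate 1 was also high for several of these genes. Without replicate 1 of both lines 7 were lower and 0 higher, with a median of -0.39. Zmat3 (-0.84, adjusted p = 0.0230) and Trp53inp1 (-0.74, 0.0447) were called there, and Eda2r (-0.92, 0.137) was not. With the replicate number as a block among the untreated arrays Zmat3 was gained too (-0.64, adjusted p = 0.0483). The number called was 4 without untreated Q7 replicate 2, 5 without untreated Q111 replicate 2 and 3 without untreated Q111 replicate 3. Only Perp, Epha2 and Rprm were called whichever array was left out. Mdm2 (-0.35, adjusted p = 0.475), Fas (0.26), Btg2 (-0.18) and Ppm1d (-0.01) were not called. A less bright probe set of Mdm2 (-0.78, adjusted p = 0.0496) and a less bright probe set of Rrm2b (-0.90, 0.0438) passed as lower. The remaining probe sets of Mdm2 (0.09, adjusted p = 0.962) and of Rrm2b (-0.75, 0.256, and -0.35, 0.743) did not pass.

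After heat shock more of the genes were lower in Q111 cells. Of the 29, 18 were lower and 0 higher (22 and 0 at an unadjusted p under 0.05), where 22.1% of all genes were called, 15.5% lower and 6.58% higher. The median was -0.90 against 0.00 over all genes, and 28 of the 29 differences were below zero; Ddb2 alone was above it (0.23, not called). The lines did not overlap for 25 genes, against 37.2% of all. This comparison uses the same heat-shocked arrays as those of heat shock within each line. With arrays centred on their median gene 9 were lower and 0 higher, where 9.48% of all genes were called lower and 25.1% higher. The median was -0.52 there against 0.37 over all genes.

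The arrest genes gave 6 of the 18. Rprm lay at 8.91, 8.60 and 8.74 in Q7 and at 4.52, 4.75 and 4.72 in Q111 cells, at least 12.2-fold higher in Q7 by the same bound. Psrc1 lay at 11.11, 11.13 and 11.29 against 9.55, 9.95 and 9.27, 3.01-fold lower in Q111 (-1.59, SE 0.26, adjusted p = 0.00115). Gtse1 was lower by a log2 difference of -0.98, Btg2 of -0.90, Cdkn1a of -0.75 and Plk2 of -0.36. Cdkn1a, at 12.65, 12.70 and 12.64 against 12.04, 11.82 and 11.86, did not overlap between the lines, but its adjusted p of 0.0484 was near the threshold and the call ended without any of 9 single arrays (adjusted p up to 0.116). That of Plk2 ended without any of the 12 arrays (up to 0.144) and that of Btg2 without 3. The second probe sets of Cdkn1a (-1.07, adjusted p = 0.0546) and Btg2 (-0.64, 0.204) did not pass, while those of Ccng1, whose brightest was not called (-0.27), passed at -1.18 and -1.25.

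The death genes gave 8. Zmat3 lay at 11.66, 11.67 and 11.51 in Q7 and at 9.74, 9.42 and 9.88 in Q111 cells, 3.81-fold lower (-1.93, SE 0.34, adjusted p = 0.00206), the largest difference between levels that were above background in both lines. Apaf1 was 2.37-fold lower (-1.24, SE 0.19, adjusted p = 9.04e-04), and its highest Q111 array, 10.21, was below its lowest Q7 array, 11.18. Tnfrsf10b was 2.08-fold lower (-1.06), with 8.90, 8.30 and 8.80 against 7.69, 8.07 and 7.06, and its second probe set (-0.91, adjusted p = 0.0993) did not pass. Fas was 1.96-fold lower (-0.97, adjusted p = 0.0310). Phlda3 (-0.98), Perp (-0.88), Aen (-0.80) and Ei24 (-0.43) were lower as well. Eda2r, at 11.48, 11.67 and 11.42 against 10.37, 10.64 and 10.61, did not overlap but was not called (-0.98, SE 0.40, adjusted p = 0.108). It was called by limma without untreated Q111 replicate 1 (SE 0.25, adjusted p = 0.0190), an array set apart by its high level of this gene among others. Trp53inp1 was not called (-0.53), but its second probe set was (-1.40, adjusted p = 0.0419).

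Repair and redox genes gave the remaining 4. Ercc5 was 2.29-fold lower in Q111 cells (-1.19, SE 0.14, adjusted p = 1.49e-04), at 8.35, 8.60 and 8.33 against 9.45, 9.68 and 9.73. Xpc was lower by a log2 difference of -1.41 (adjusted p = 0.0287) with overlapping arrays, Polk of -0.96 and Sesn1 of -0.99, whose call ended without any of 11 arrays (adjusted p up to 0.135). The regulators Mdm2 (-0.45, adjusted p = 0.175) and Ppm1d (-0.48, 0.0687) were not called, although the arrays of the lines did not overlap for either. A less bright probe set of Mdm2 passed at -1.07 (adjusted p = 0.00566), while its remaining probe set (-0.10, 0.869) did not. Genes lower in Q111 cells at both temperatures were Cdkn1a, Psrc1, Phlda3, Perp, Aen and Rprm. Of the 18 calls 10 held whichever array was left out. The number called was 10 without heat-shocked Q7 replicate 1, 11 without heat-shocked Q7 replicate 3 and 11 without heat-shocked Q111 replicate 3.

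**Figure D4:**
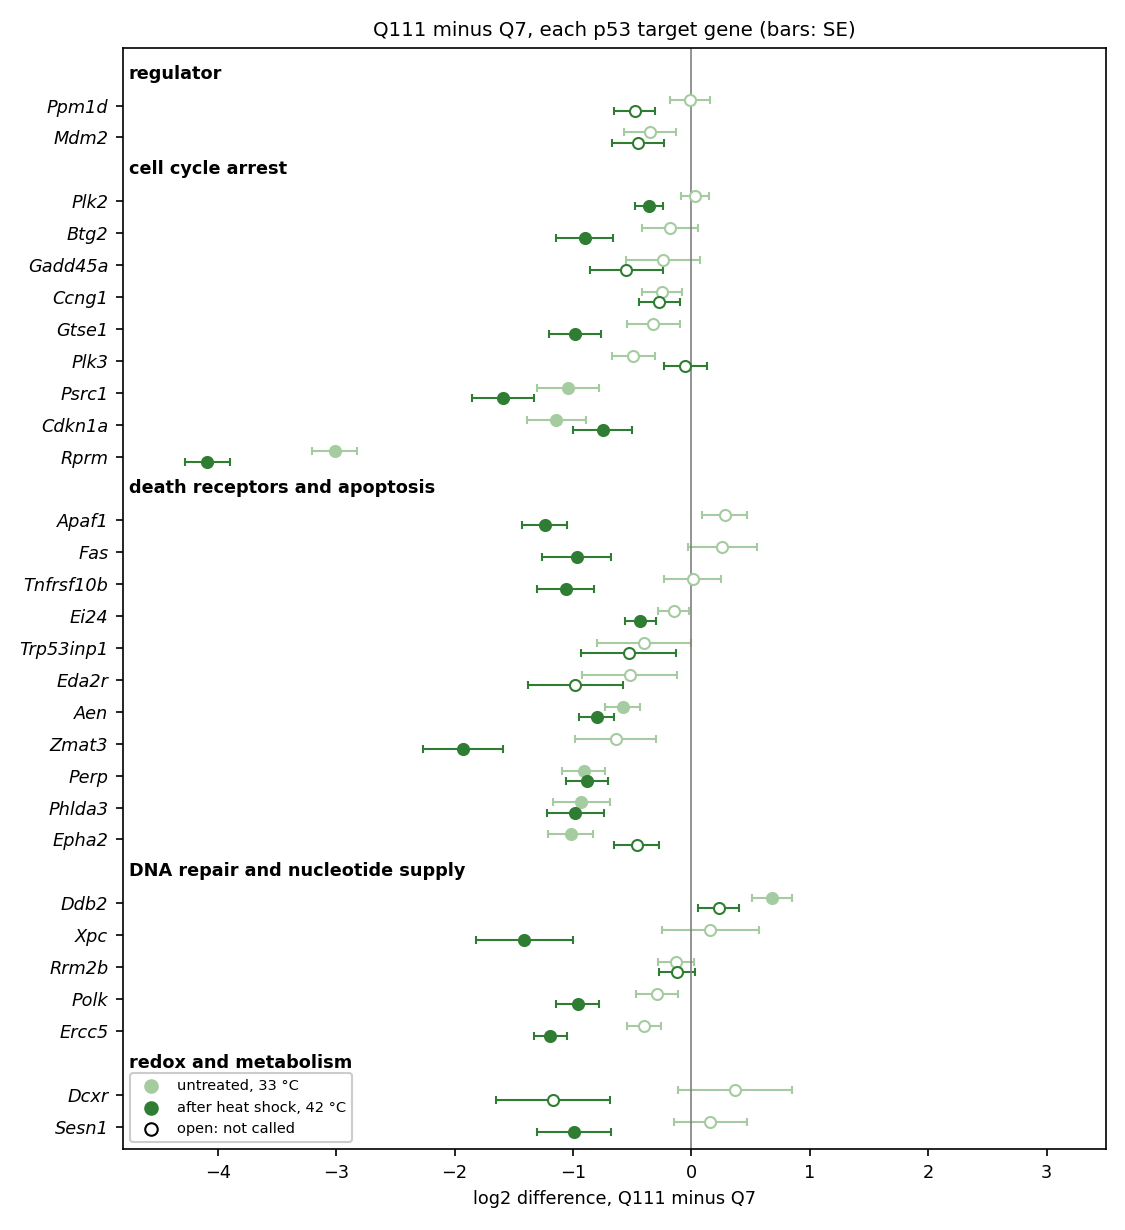
Q111 minus Q7 (log2 difference) for each of the 29 genes, grouped by role, at 33 °C in pale green and after heat shock in dark green; bars are standard errors and open points were not called. Of the dark points 28 lie to the left of zero and 18 are filled; of the pale points 8 are filled, with Ddb2 at 0.68 the only filled one to the right.

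Genes around the pathway that are not among the 29 were counted from 3 lists. Of 23 measured regulators and cofactors of p53, 2 were higher and 4 lower after heat shock in Q7 cells (median -0.05) and 3 higher and 8 lower in Q111 cells (median -0.27). These counts lay near the shares over all genes, 12.3% higher and 18.1% lower in Q7 and 20.0% and 28.2% in Q111 cells. In each list the 3 largest called changes in each direction are named for each line. A gene named for 1 line alone may be called in the other too. Rchy1, a further p53 ubiquitin ligase, rose by 1.21 in Q7 and 0.71 in Q111 cells, and the checkpoint kinase gene Chek1 by 0.79 and 0.89. The deacetylase gene Sirt1 rose by 0.55 in Q111 cells. The damage kinase gene Atr fell by 1.43 in Q7 and fell by 2.04 in Q111 cells. Usp7, the deubiquitinase of Mdm2 and p53, fell by 0.73 in Q7 and fell by 0.92 in Q111 cells. The kinase gene Atm fell by 0.66 in Q7 and fell by 0.53 in Q111 cells, and both genes were called in both lines. In Q111 cells Wrap53, a Cajal body protein of telomerase, fell by 1.94 and the acetyltransferase gene Kat5 fell by 1.41. At 33 °C 0 of the 23 were called between the lines by limma, against 10.8% of all genes. By an unadjusted p under 0.05, 1 was higher and 1 lower.

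Of 37 measured further p53 targets, 16 were higher and 4 lower in Q7 cells (median 0.53) and 12 higher and 11 lower in Q111 cells (median 0.18). Cd80, a costimulatory ligand of immune cells, rose by 3.10 in Q7 and 1.66 in Q111 cells, and Slc19a2, a thiamine transporter, by 1.53 and 2.20. Bbc3, the BH3-only death protein PUMA, rose by 1.78 in Q7 and 1.38 in Q111 cells. Pmaip1, its relative NOXA, rose by 1.45 in Q7 and 1.41 in Q111 cells, and both genes were called in both lines. Thbs1, the matrix protein thrombospondin, fell by 2.49 in Q7 and fell by 2.15 in Q111 cells. In Q7 cells Igfbp3, which binds insulin-like growth factors, fell by 2.30 with 2 of the heat-shocked arrays under the background bound, and Abcb1a, a drug efflux pump, was called lower near that bound. In Q111 cells Dglucy fell by 1.42 and Pml, the scaffold of nuclear bodies, fell by 1.40. After heat shock 2 of the 37 were higher and 14 lower in Q111 than in Q7 cells, against 6.58% and 15.5% of all genes. Of 19 measured cell cycle genes that p53 lowers through Cdkn1a, 10 fell and 0 rose in Q7 cells (median -0.72), and 9 fell and 0 rose in Q111 cells (median -0.50). The proliferation marker Mki67 fell by 1.72 in Q7 and fell by 1.60 in Q111 cells. In Q7 cells the mitotic kinase gene Plk1 fell by 1.57 and the mitotic cyclin gene Ccnb2 fell by 1.41, and in Q111 cells the S-phase factor gene E2f1 fell by 1.53 and the kinesin gene Kif23 fell by 1.26. At an unadjusted p under 0.05 the counts of those higher were 0 in both lines. Median effects over all genes were 0.00 and -0.02, with the called shares given above.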

How the data were processed

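Expression was measured on 12 Affymetrix mouse arrays, 3 for each of 4 groups taken from the labels. The deposited log2 levels per probe set were made by the authors with RMA, per the submitters' processing notes; no source used here gives the software version or chip definition. RMA normalizes quantiles and so hides global shifts in RNA. Of 45101 probe sets, 34945 named 1 gene and gave 18193 genes, each kept by its brightest probe set; 16 of the 29 genes had more than 1. Background range ended at 5.14, the highest level of 27 bacterial control probe sets. limma 3.58.1 in R 4.3.3 fitted 4 group means to the 12 arrays (8 residual degrees of freedom, 3.23 prior) and tested 5 contrasts two-sided with Benjamini-Hochberg adjustment. The fit was tested on simulated data with independent noise and changes in heat-shocked Q7 cells alone. Those data held no array-wide deviations or differences in RNA quality, so the test does not bear on these. Genes named were the 32 listed, and from each of 3 pathway lists the 3 largest called changes in each direction after heat shock in each line. Rfwd2, an older name of Cop1, was not counted apart. Members, lists and tests were chosen with earlier results of these data known. Alternatives were other probe set summaries, brighter genes alone, 3 scalings, variance trends, array weights, only the groups compared, a replicate block, a stricter threshold, the actin covariate and leaving out each array. A block among untreated arrays alone, and leaving out replicate 1 of both untreated groups, were chosen after the data were seen. Replicate numbers are those of the labels. Over genes, same-numbered untreated arrays of the lines deviated together from their group means (r = 0.516, 0.402 and 0.577), so the numbers pair these arrays; the reported fit has no block, and the blocked value is given where it changes a call. Scanner files were not used here, and the number of arrays limits precision.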

Additional observations from a re-analysis of the deposited data

Results flagged for a closer look

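The heat shock effect differed between the lines, by the interaction test of the difference itself (limma, adjusted p under 0.05 over all genes), for 3 of the 29 p53 target genes and for 4 of 37 further p53 targets, where 5.72% of all genes were called. All 7 differences were below zero, as were 820 of the 1041 called over all genes. The difference, Q111 minus Q7, was -1.53 for Apaf1, -0.79 for Ercc5 and -1.08 for Rprm, whose Q111 levels were under background range. For Tap1, a peptide transporter of antigen presentation, it was -2.48 (adjusted p = 0.0113), with effects of 1.10 in Q7 and -1.38 in Q111 cells. For Abhd4, a lipid hydrolase, it was -1.37 (adjusted p = 0.0107), for Pml, the scaffold of nuclear bodies, -1.25 (0.0133), and for Pidd1, a death domain protein, -1.11 (0.0288). The Pidd1 call ended under 13 of the alternatives, that of Tap1 under 3 and those of Pml and Abhd4 under 2.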

How the results depend on the processing

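No setting other than those named here moved a count of called genes by more than 1.5 times, and the cause of each change was not tested. The called number under a setting, against the reported one, was 4 against 18 for heat shock in Q7 cells and 14 against 22 in Q111 cells with the actin covariate. For the difference of the effects it was 1 against 3 with every probe set tested separately, a variance trend, a robust trend, a replicate block, the actin covariate or replicate 1 of both untreated groups left out, 0 with median centring or an adjusted p under 0.01, and 11 with array weights, whose estimation did not converge. For the lines at 33 °C it was 3 against 8 at an adjusted p under 0.01 and 5 with the actin covariate, and for the lines after heat shock 9 against 18 with median centring and 10 at an adjusted p under 0.01. Leaving out 1 array gave 16 to 20, 17 to 22, 1 to 5, 3 to 9 and 10 to 17 in the order of these comparisons. The replicate block gave 17, 21, 1, 8 and 17, and a block among the untreated arrays alone gave 9 at 33 °C, with Zmat3 gained (-0.64, adjusted p = 0.0483).

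Changes of sign are listed for genes called in the reported fit or under the setting. The sign turned for Polk in Q111 cells with the mean of all probe sets (-0.06). With median centring it turned in Q111 cells for Plk2 (0.37), Rrm2b (0.70, adjusted p = 0.00771) and Ddb2 (0.70, adjusted p = 0.0136), and for Plk2 between the lines after heat shock (0.02). That centring moved every heat shock effect in Q111 cells by 0.73. Apaf1 (-0.43 as reported), Ercc5 (-0.35) and Zmat3 (-0.66), called in neither fit, therefore turned above zero too. Other genes called in neither fit are not listed. Calls that held under every alternative numbered 4 of 18, 11 of 22, 0 of 3, 3 of 8 and 6 of 18 in the same order. Levels of Rprm in Q111 cells and of Xpc in heat-shocked Q111 cells were limited by background.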
